A study of Mus musculus with 36 samples.

Results

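The ribosomal proteins of the cytosolic ribosome are encoded by genes named *Rpl* for the large (60S) and *Rps* for the small (40S) subunit. Of the 56246 genes in the expression table, 92 were protein-coding genes with a symbol of *Rpl* or *Rps* followed by a digit, or were *Rplp0*, *Rplp1*, *Rplp2* or *Rpsa*, with the kinases named *Rps6k* left out. They comprised 77 canonical genes (46 of the large and 31 of the small subunit), 7 paralogs and 6 copies called retrocopies below. The latter are the copies with -ps in the symbol that are annotated here as coding, so the intronless copy *Rps27rt* counts as a paralog. Another 2 genes fit the name but encode other proteins, *Rps19bp1* and *Rpl7l1*. The members lay on 20 chromosomes, and 85 of them reached a mean of 0.5 TPM (reads of a gene corrected for its length and set relative to the library total) and were tested. *Fau* and *Rack1*, which encode further proteins of the ribosome under other names, were followed beside them.

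Tibial RNA was sequenced from 12 wild-type mice (treatment labelled NT), 12 *LMNA* G608G/G608G mice injected with saline and 12 *LMNA* G608G/G608G mice injected with an adenine base editor (ABE), each group being made up of 6 males and 6 females aged 6 months. The *LMNA* G608G/G608G mice (*LMNA* G/G) model Hutchinson-Gilford progeria syndrome, a disease of premature aging caused by the truncated lamin A called progerin. They carry a human *LMNA* gene with the G608G mutation on an artificial chromosome that also holds human *RAB25*, keep their own mouse *Lmna*, and received saline or the editor by retro-orbital injection at postnatal day 14 (P14). The editor, delivered by a pair of adeno-associated viral vectors, changes the mutant base of the transgene in the cells that the vectors reach. Epiphyses and marrow had been removed, and markers of osteocytes, osteoblasts, osteoclasts, blood cells and skeletal muscle were all detected. Mouse numbers run in 2 series and all wild-type mice belong to 1 of them. No injection is labelled for the wild-type mice either. In comparisons with wild-type, a batch by series, the injection and the genotype can therefore not be told apart.

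Each ribosome holds 1 copy of nearly every ribosomal protein, and the proteins assemble with ribosomal RNA in the nucleolus before the subunits leave for the cytoplasm. Most of their mRNAs begin with a cytosine followed by a run of pyrimidines, the 5′ terminal oligopyrimidine (TOP) motif, through which the growth-regulating kinase complex mTORC1 and the RNA-binding protein LARP1 control their translation and stability. Free Rpl5 and Rpl11, together with 5S ribosomal RNA, bind the p53 regulator Mdm2 when ribosome assembly fails. Changes of dosage in several ribosomal protein genes, *Rps19* among them, cause Diamond-Blackfan anemia in humans, a disease in which some patients also have skeletal malformations.

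The pyrimidine start is the sequence feature that most of these genes are known to share, and it is shown here around the transcription start sites that RefSeq lists (build GRCm38.p6), from 10 bases before to 20 bases from the start. Promoters were found for 66 of the 92 members. Capitals mark a C followed by at least 4 more C or T that begins within 5 bases of the listed start. Of the small subunit, *Rps6*, *Rps9* and *Rps26* are shown, since *Rps6* is the protein phosphorylated downstream of mTORC1. In saline-treated against wild-type mice, *Rps26* had one of the largest rises of canonical genes and *Rps9* passed the threshold in neither direction. *Rpl35* and *Rplp2* are shown for the large subunit as examples with a run. Others of that subunit, such as *Rpl5*, *Rpl11*, *Rpl26* and *Rplp0*, have none at the listed start.
Rps6 (chr4:86857348-86857377, minus strand): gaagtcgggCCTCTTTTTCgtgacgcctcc
Rps9 (chr7:3704031-3704060, plus strand): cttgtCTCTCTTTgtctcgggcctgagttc
Rps26 (chr10:128626487-128626516, minus strand): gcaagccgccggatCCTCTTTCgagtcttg
Rpl35 (chr2:39005112-39005141, minus strand): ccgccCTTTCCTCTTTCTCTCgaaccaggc
Rplp2 (chr7:141447641-141447670, plus strand): cagcgtCTTCCTTTCgccgccggacgccgc
The paralogs *Rps27rt* and *Rps27l* and their partner *Rps27* are given next, followed by the muscle paralog *Rpl3l*. *Rps27rt* is an intronless copy of *Rps27* and had the largest log2 fold change of all members in saline-treated mice on the scale used below.
Rps27 (chr3:90213629-90213658, minus strand): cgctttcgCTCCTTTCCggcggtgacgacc
Rps27rt (chr9:114982720-114982749, minus strand): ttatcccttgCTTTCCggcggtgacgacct
Rps27l (chr9:66946076-66946105, plus strand): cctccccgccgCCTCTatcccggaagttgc
Rpl3l (chr17:24727816-24727845, plus strand): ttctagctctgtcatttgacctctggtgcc
For genes with several listed starts the first is shown. No run of this kind stands at the listed start of *Rpl3l*. Over the 57 canonical genes with a listed promoter, 27 (47.4%) had such a run, against 21.2% of the 27025 genes with a promoter. Listed starts can lie some bases from the start that cells use, so a missing run says only that the letters are not at this position.

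In the window from 250 bases before to 50 bases after the start, the letters CCGGAAG, a core recognised by factors of the ETS family, were found on either strand in 24 of 57 canonical genes (42.1%) against 9.93% of all genes. GGGCGG, the core bound by Sp1, was found in 35 (61.4% against 38.2%), and CACGTG, the E-box bound by Myc and its relatives, in 6 (10.5% against 8.09%). The letters TATAAA of the TATA box were found in 6 (10.5% against 15.7%). None of these 4 strings contains another.

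Libraries had between 48064068 and 116206662 reads on genes, recovered from the TPM. The shortest genes, up to 219 bp, accounted for 84.7% to 96.6% of the TPM of a library, and the levels of longer genes are small for this reason. Libraries were therefore rescaled by median ratios, in which each gene is set against its geometric mean over libraries, and all levels below are in this unit (scaled TPM). The lowest median was that of the ABE-treated female replicate 1. All log2 fold changes below were taken on log2(scaled TPM + 0.5), which understates the change of low genes, with sex as a covariate.

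The 92 members held 1.03% to 1.701% of the reads on genes in wild-type libraries (median 1.31%), 1.46% to 2.07% in saline-treated (median 1.73%) and 0.864% to 1.78% in ABE-treated *LMNA* G/G mice (median 1.38%). The share was highest in saline-treated mice, and the groups overlapped. Levels of the 76 canonical genes tested ran from a mean of 0.607 scaled TPM for *Rps10* to 305 for *Rplp1*, with a median of 27.8, and 51 were above 20. The 5 with the highest levels were *Rplp1*, *Rpl36*, *Rplp0*, *Rps15* and *Rps3a1*.

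Averaged over the 76 canonical genes and set to 0 at the wild-type mean, the log2 level of a library ran from -0.19 to 0.25 in wild-type (SD 0.13, n = 12), from 0.26 to 0.61 in saline-treated (mean 0.45, SD 0.11, n = 12) and from 0.0064 to 0.49 in ABE-treated mice (mean 0.21, SD 0.15, n = 12). All saline-treated libraries lay above all wild-type libraries, whereas ABE-treated libraries overlapped both groups. In bulk tissue, a change in how many cells of a kind were sampled and a change in RNA per cell cannot be told apart.

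**Figure D1:**
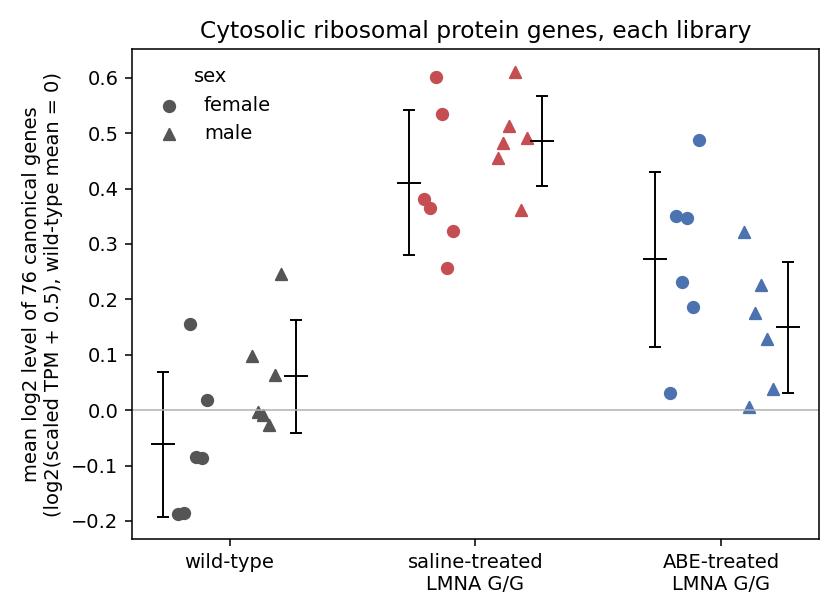
Mean log2 level of the 76 canonical ribosomal protein genes in each of the 36 libraries, on log2(scaled TPM + 0.5) with the wild-type mean at 0, by group (x axis) and sex (circles, females; triangles, males), with bars for the mean ± SD of 6 libraries. Saline-treated libraries lie between 0.26 and 0.61, all above the highest wild-type library at 0.25, and ABE-treated males have a lower mean (0.15) than ABE-treated females (0.27).

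Saline-treated *LMNA* G/G mice were first compared with wild-type mice, from which they differ in genotype, in the injection and in the series of mouse numbers. Ribosomal protein genes rose almost as a body: 78 of the 85 tested were higher and 2 were lower, where 25.7% of all 16123 genes were called higher and 27% lower. The median log2 fold change of the members was 0.46, a 1.37-fold higher level, beside 0.0013 for all genes tested. For 41 members every saline-treated library lay above every wild-type library, as it did for 2.69% of all genes. Of the canonical genes, 43 of 45 in the large and 29 of 31 in the small subunit were higher, with medians of 0.47 and 0.33. On TPM as deposited, where the median of all genes was -0.13, the number called higher was 17, beside 6.44% of all genes, and the median of the members was 0.28, which is 0.41 above that of all genes.

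**Figure D2:**
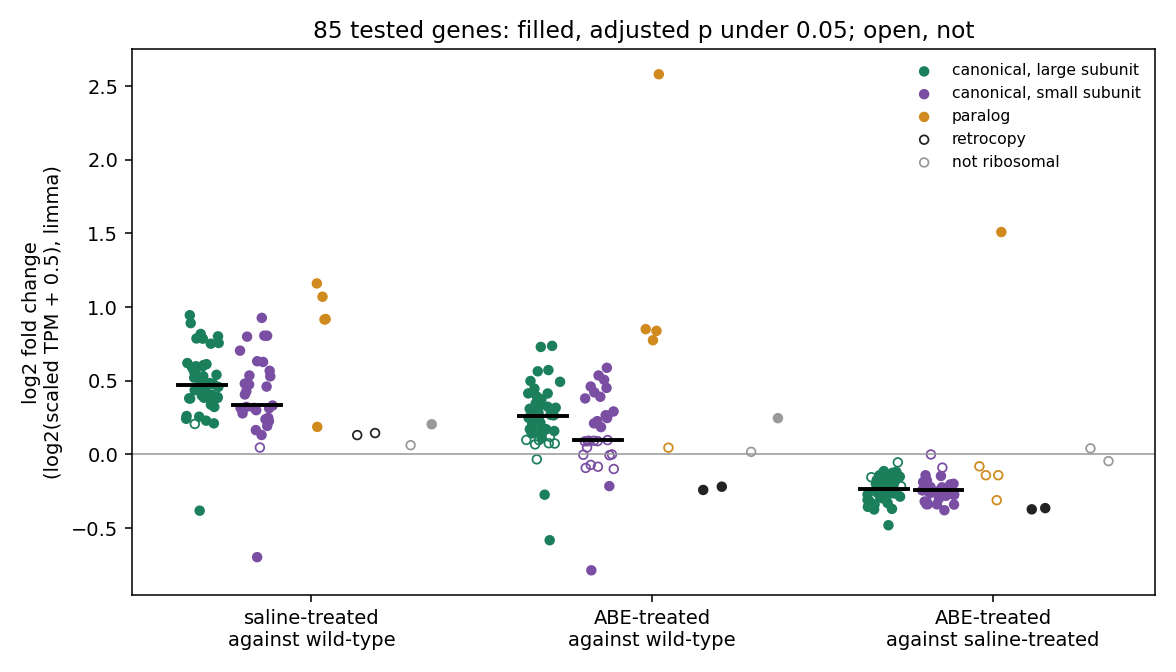
Log2 fold changes (y axis) of the 85 tested genes in the 3 comparisons (x axis), by class. Filled points had an adjusted p under 0.05 and bars mark the medians of canonical genes. Against wild-type, 78 genes were higher after saline and 56 after ABE. On TPM as deposited the median after ABE turned to -0.32, beside -0.42 for all genes. Between the treatments 73 were lower in ABE-treated mice, with the paralog *Rpl3l* far above the others.

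The proteins of the stalk, the arm of the large subunit that recruits elongation factors, are Rplp0 and the pair Rplp1 and Rplp2. *Rplp1* (ENSMUSG00000007892.8, chromosome 9 from 61913284 to 61914542 of GRCm38) lay from 200.1 through a median of 241 up to 287 scaled TPM across wild-type libraries, from 291 through a median of 366 up to 434 across those of the saline group and from 244 through a median of 309 up to 393 across those of the ABE group. Saline-treated and wild-type libraries did not overlap, and the log2 fold change was 0.56 (adjusted p = 6.2e-08, SE 0.070). *Rplp0* lay from 89.2 through a median of 97.3 up to 116 scaled TPM across wild-type libraries, from 119.9 through a median of 133 up to 159.9 across those of the saline group and from 102 through a median of 119 up to 141 across those of the ABE group, again with no overlap between saline-treated and wild-type mice, and rose by 0.43 (adjusted p = 1.6e-08, SE 0.050). *Rplp2* rose less, by 0.21 (adjusted p = 0.0028, SE 0.058), from medians of 28.6 to 32.8, with overlapping groups. *Rpsa*, the small subunit protein also known as the laminin receptor, rose by 0.31 (adjusted p = 1.0e-04, SE 0.063).

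*Rpl5* and *Rpl11*, which carry 5S ribosomal RNA into the large subunit, were both higher in saline-treated mice. *Rpl5* lay from 13.5 through a median of 14.6 up to 17.1 scaled TPM across wild-type libraries, from 16.6 through a median of 17.6 up to 19.7 across those of the saline group and from 12.8 through a median of 15.6 up to 18.4 across those of the ABE group, with a log2 fold change of 0.26 (adjusted p = 1.3e-05, SE 0.045). *Rpl11* lay from 14.5 through a median of 17.4 up to 20.9 scaled TPM across wild-type libraries, from 20.998 through a median of 22.3 up to 25.4 across those of the saline group and from 16.6 through a median of 18.9 up to 23.1 across those of the ABE group, with a log2 fold change of 0.38 (adjusted p = 2.6e-06, SE 0.059). Every saline-treated library exceeded every wild-type library for *Rpl11*, while for *Rpl5* the lowest saline-treated library fell below the highest wild-type one.

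Of the small subunit, *Rps6*, the substrate of the S6 kinases, lay from 30.3 through a median of 36.1 up to 43.7 scaled TPM across wild-type libraries, from 37.8 through a median of 43.1 up to 48.9 across those of the saline group and from 29.9 through a median of 37.3 up to 44.1 across those of the ABE group and rose by 0.30 (adjusted p = 1.7e-04, SE 0.063). *Rps19* lay from 8.85 through a median of 10.03 up to 11.7 scaled TPM across wild-type libraries, from 10.9 through a median of 12.1 up to 13.7 across those of the saline group and from 8.16 through a median of 10.03 up to 12.1 across those of the ABE group and rose by 0.28 (adjusted p = 2.0e-04, SE 0.059). In both genes the groups overlapped. *Rps3a1*, one of the most abundant members, had medians of 101, 115 and 98.7 in the groups in the same order and rose by 0.19 (adjusted p = 0.0022, SE 0.052). *Rps15*, which sits in the head of the small subunit, moved further, with medians of 84.6, 136 and 114 and a log2 fold change of 0.63 (adjusted p = 1.2e-10, SE 0.057) without overlap.

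Among canonical genes the largest rises were those of *Rpl26*, a protein at the exit of the peptide tunnel that also binds p53 mRNA, *Rps26*, which contacts mRNA near the exit channel, and *Rpl36*. *Rpl26* (ENSMUSG00000060938.14, chromosome 11 from 68901583 to 68906989) lay from 13.2 through a median of 17.5 up to 23.2 scaled TPM across wild-type libraries, from 24.05 through a median of 35.7 up to 42.5 across those of the saline group and from 23.9 through a median of 28.5 up to 39.97 across those of the ABE group, with a log2 fold change of 0.95 (adjusted p = 1.0e-09, SE 0.095). *Rps26* (ENSMUSG00000025362.6, chromosome 10 from 128624534 to 128626747) lay from 10.7 through a median of 13.9 up to 19.05 scaled TPM across wild-type libraries, from 19.4 through a median of 28.8 up to 36.4 across those of the saline group and from 15.5 through a median of 21.9 up to 29.05 across those of the ABE group, with a log2 fold change of 0.93 (adjusted p = 2.8e-09, SE 0.098). *Rpl36* lay from 92.3 through a median of 113 up to 146 scaled TPM across wild-type libraries, from 154 through a median of 214 up to 252 across those of the saline group and from 173 through a median of 185 up to 229 across those of the ABE group, with a log2 fold change of 0.89 (adjusted p = 6.6e-11, SE 0.078). For all 3 the saline-treated libraries were above every wild-type library.

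*Rps9* and *Rpl3* were the canonical genes that passed the threshold in neither direction. *Rps9* (ENSMUSG00000006333.14, chromosome 7 from 3703993 to 3706897), a protein of the mRNA entry side, lay from 36.8 through a median of 42.4 up to 46.6 scaled TPM across wild-type libraries, from 37.996 through a median of 43.4 up to 47.9 across those of the saline group and from 30.6 through a median of 36.2 up to 43.3 across those of the ABE group, a log2 fold change of 0.047 (adjusted p = 0.44, SE 0.050) in saline-treated against wild-type mice. *Rpl3*, which reaches into the peptidyl transferase center, lay from 23.4 through a median of 26.8 up to 31.9 scaled TPM across wild-type libraries, from 24.6 through a median of 30.7 up to 36.6 across those of the saline group and from 12.01 through a median of 23.6 up to 30.4 across those of the ABE group, a log2 fold change of 0.21 (adjusted p = 0.057, SE 0.092). For both genes the groups overlapped. *Rpl3* passed the threshold when any 1 of wild-type replicate 11 (0.23), saline-treated replicate 11 (0.24), or ABE-treated replicates 1 and 2 (0.21 each) was left out.

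Of the 76 canonical genes tested, *Rps10* and *Rpl13a* were the ones that fell. *Rps10* lay from 0.722 through a median of 1.01 up to 1.27 scaled TPM across wild-type libraries, from 0.288 through a median of 0.422 up to 0.564 across those of the saline group and from 0.277 through a median of 0.394 up to 0.413 across those of the ABE group, with a log2 fold change of -0.70 (adjusted p = 2.4e-12, SE 0.052), and *Rpl13a* lay from 1.33 through a median of 1.79 up to 2.09 scaled TPM across wild-type libraries, from 1.01 through a median of 1.23 up to 1.57 across those of the saline group and from 0.805 through a median of 0.976 up to 1.37 across those of the ABE group, with a log2 fold change of -0.38 (adjusted p = 7.3e-07, SE 0.055). Every saline-treated library was below every wild-type library for *Rps10*, whereas the groups overlapped for *Rpl13a*. Both levels were far below the 27.8 that is the median of canonical genes. With *Rpl24* and *Rpl36al* they were the 4 members that share more than 20% of their exon bases on the same strand with another annotated gene: 20.6% for *Rps10*, 35.4% for *Rpl13a*, 46.99% for *Rpl24* and 24.5% for *Rpl36al*. *Rpl24* and *Rpl36al* did not reach the level tested, with medians of 0.272, 0.166 and 0.155 and 0.3301, 0.123 and 0.102 scaled TPM in the 3 groups in the same order. How the counting assigned reads in shared exons was not tested, and the values of these 4 genes are uncertain.

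*Fau* and *Rack1*, which lie outside the naming rule, were both higher in saline-treated mice. *Fau*, whose product is cleaved into a ubiquitin-like protein and the small-subunit protein eS30, had medians of 59.5, 68.6 and 58.4 and rose by 0.23 (adjusted p = 0.0010) in saline-treated mice. *Rack1*, a scaffold on the head of the small subunit, had medians of 15.6, 20.6 and 16.5 and rose by 0.36 (adjusted p = 9.0e-06).

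Paralogs are genes with a more restricted expression whose products can replace a canonical protein. *Rpl3l* (ENSMUSG00000002500.15, chromosome 17 from 24727820 to 24736143), the form of Rpl3 used by skeletal and cardiac muscle, shares 74.3% of aligned coding bases with *Rpl3*. It lay from 1.04 through a median of 4.97 up to 14.4 scaled TPM across wild-type libraries, from 1.63 through a median of 12.03 up to 34.1 across those of the saline group and from 6.48 through a median of 35.8 up to 89.9 across those of the ABE group. The coefficient of variation was 61.9% among wild-type, 73.6% among saline-treated and 58.6% among ABE-treated libraries, and all groups overlapped. *Rpl3l* rose by 1.07 (adjusted p = 0.028, SE 0.41) in saline-treated mice, by 2.58 (adjusted p = 1.7e-06, SE 0.41) in ABE-treated mice against wild-type, and by 1.51 (adjusted p = 0.0040, SE 0.41) between the treatments. The first of these calls was lost when any 1 of wild-type replicates 1 (0.91) and 11 (0.90) or saline-treated replicates 11 (0.92) and 12 (0.93) was left out.

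*Rpl3l* made up 3.15% to 38.2% of the summed level of *Rpl3* and *Rpl3l* in wild-type (median 15.5%), 4.37% to 58.2% in saline-treated (median 26.9%) and 17.6% to 88.2% in ABE-treated mice (median 63.6%). In the ABE-treated group *Rpl3* itself was lower, with a log2 fold change of -0.27 (adjusted p = 0.0090, SE 0.092) against wild-type and -0.48 (adjusted p = 5.0e-04, SE 0.092) against saline-treated mice. When the list of skeletal muscle genes entered as a covariate, the value of *Rpl3* against wild-type turned to 0.085 (adjusted p = 0.57). The values of *Rpl3l* then fell short of the threshold in all 3 comparisons, at 0.054 (adjusted p = 0.71), 0.14 (adjusted p = 0.46) and 0.089 (adjusted p = 0.68). *Rpl3l* followed that list within each group (r of 0.98 to 0.99, below), and the list itself differed between the groups. The fit therefore cannot separate *Rpl3l* from the muscle genes. Without ABE-treated replicate 1, which had the lowest *Rpl3* and the highest *Rpl3l* level, the values between the treatments were -0.40 for *Rpl3* and 1.37 for *Rpl3l*, and both passed the threshold.

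**Figure D3:**
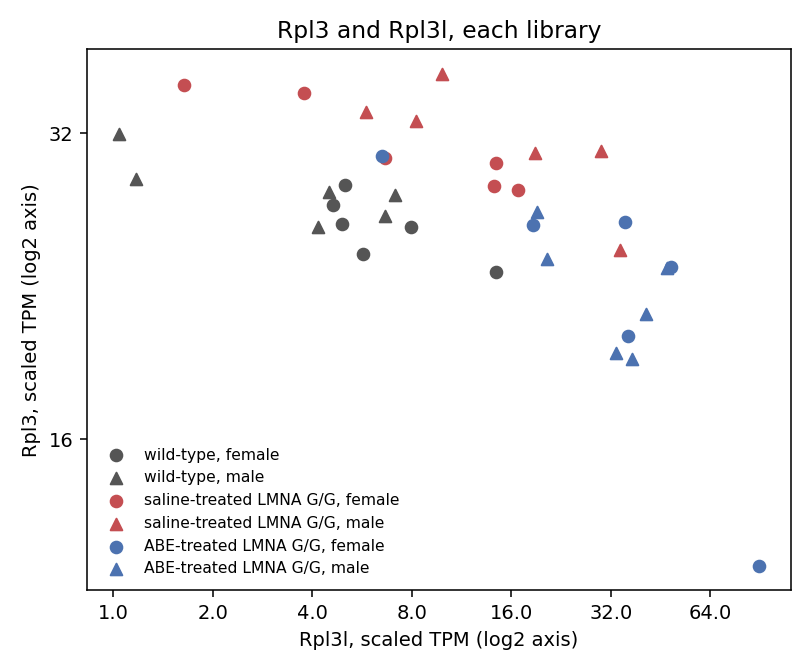
Level of *Rpl3* (y axis) against its muscle paralog *Rpl3l* (x axis) in each library, in scaled TPM on log2 axes, with colors for the groups and circles for females and triangles for males. ABE-treated libraries reach the highest *Rpl3l* levels, up to 89.9, and the lowest *Rpl3* level, 12.01, is that of ABE-treated replicate 1.

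Within each group of 12, *Rpl3l* followed the summed level of 30 skeletal muscle genes, with Pearson's r of 0.99 in the wild-type group, 0.98 in the saline group and 0.98 in the ABE group, and Spearman's rho of 0.97, 1 and 0.92. For r, the two-sided permutation p was 1e-05 in the first 2 groups, the smallest the permutations can give, and 3.0e-05 in ABE-treated mice, with adjusted p of 4.5e-05, 4.5e-05 and 9.0e-05 over 9 relations. For rho, the permutation p was 1e-05, 1e-05 and 1.0e-04, with adjusted p of 4.5e-05, 4.5e-05 and 3.0e-04. Without the 2 libraries farthest from the median of the muscle sum, r was 0.97, 0.97 and 0.97.

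*Rpl3* and *Rpl3l* were related in the opposite sense, with r of -0.81 in the wild-type group, -0.75 in the saline group and -0.78 in the ABE group (permutation p = 0.0020, 0.0052 and 0.0069, adjusted 0.0036, 0.0067 and 0.0077). Spearman's rho was -0.61, -0.68 and -0.69 (permutation p = 0.040, 0.019 and 0.015, adjusted 0.045, 0.028 and 0.028). Without the 2 libraries with the most distant *Rpl3l* levels, r came to -0.61, -0.66 and -0.48 and rho to -0.32, -0.55 and -0.47. *Rpl3* against the muscle sum gave r of -0.80, -0.76 and -0.72 (adjusted permutation p = 0.0036, 0.0066 and 0.016). The mean of the canonical members against the muscle sum gave r of -0.66, -0.40 and -0.26, as a description. Its rho was -0.52, -0.44 and -0.098. Without the 2 libraries farthest from the median of the muscle sum, r was -0.32, -0.26 and -0.021 and rho -0.24, -0.26 and 0.20. These levels share the scaling of each library, and the relations were chosen after the values had been seen.

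*Rps27rt* had the largest log2 fold change of all members in saline-treated mice on log2(scaled TPM + 0.5). It lay from 1.63 through a median of 2.605 up to 4.16 scaled TPM across wild-type libraries, from 4.16 through a median of 6.57 up to 8.91 across those of the saline group and from 3.76 through a median of 4.797 up to 7.82 across those of the ABE group, and its log2 fold change was 1.16 (adjusted p = 1.4e-08, SE 0.13). Under the alternatives to the main fit this value reached up to 1.29, and that of the low paralog *Rpl39l* up to 1.63. The rank of *Rps27rt* therefore depends on the scale. Its highest wild-type and lowest saline-treated library were nearly equal. Its 255 coding bases, stop codon included, are identical to those of *Rps27*, so that reads of the 2 genes cannot be told apart within the coding sequence and its value is uncertain. *Rps27* rose by 0.81 (adjusted p = 1.6e-08, SE 0.094) over the same libraries, from a median of 17.8 to 32.9.

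*Rps27l*, a target of p53 that shares 75.3% of aligned coding bases with *Rps27*, lay from 4.65 through a median of 6.16 up to 7.34 scaled TPM across wild-type libraries, from 9.94 through a median of 12.004 up to 13.5 across those of the saline group and from 7.93 through a median of 10.04 up to 14.96 across those of the ABE group. Its saline-treated and its ABE-treated libraries were each above all wild-type libraries, with log2 fold changes of 0.92 (adjusted p = 1.8e-10, SE 0.084) and 0.78 (adjusted p = 3.0e-09, SE 0.084). *Rpl39l*, best known from male germ cells, was low but lay from 0.167 through a median of 0.374 up to 0.647 scaled TPM across wild-type libraries, from 0.703 through a median of 1.15 up to 2.16 across those of the saline group and from 0.702 through a median of 1.03 up to 1.73 across those of the ABE group, with log2 fold changes against wild-type of 0.92 (adjusted p = 4.5e-09, SE 0.10) in saline-treated and 0.84 (adjusted p = 1.5e-08, SE 0.10) in ABE-treated mice and no overlap with wild-type in either. Its partner *Rpl39* rose by 0.41 (adjusted p = 1.6e-04, SE 0.084) in saline-treated mice.

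*Rpl22l1* had medians of 2.92, 3.304 and 3.04 and rose by 0.19 (adjusted p = 0.039, SE 0.076), the smallest rise of the 5 paralogs tested, and this call was lost when any 1 of 12 libraries was left out (adjusted p up to 0.079). Its partner *Rpl22*, an RNA-binding protein that represses the paralog, rose by 0.38 (adjusted p = 3.6e-08, SE 0.046) without overlap. *Rpl36a*, the partner of *Rpl36al*, rose by 0.46 (adjusted p = 1.7e-07, SE 0.061), *Rps4x*, an X-linked protein of the small subunit, by 0.33 (adjusted p = 2.0e-05, SE 0.059), and *Rpl10*, an X-linked protein that joins the large subunit late, by 0.60 (adjusted p = 2.6e-09, SE 0.063). *Rpl10l*, the autosomal copy of *Rpl10* used by male germ cells, was listed at 0 in all 36 libraries.

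Of the 6 retrocopies, *Rpl36a-ps1* and *Rps18-ps5* reached the level tested and neither passed the threshold in saline-treated mice, with log2 fold changes of 0.13 (adjusted p = 0.28, SE 0.10) and 0.15 (adjusted p = 0.14, SE 0.083). *Rpl10-ps3*, whose coding bases are identical to those of *Rpl10*, had a highest value of 0.121 scaled TPM, *Rpl9-ps6* of 0.696 and *Rpl9-ps1* of 0.0907, and *Rpl36-ps4* was listed at 0 throughout. The 2 genes that are ribosomal by name only moved less than most members. *Rps19bp1*, which encodes a partner of Rps19 and of the deacetylase Sirt1, rose by 0.21 (adjusted p = 6.2e-06, SE 0.034), and *Rpl7l1* had a log2 fold change of 0.063 (adjusted p = 0.12, SE 0.034).

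In ABE-treated *LMNA* G/G mice, compared with the same wild-type libraries, 56 of 85 members were higher and 6 lower, where 34.7% and 35.8% of all genes were called. Their median was 0.24 (1.18-fold) beside -0.022 for all genes, but on TPM as deposited it turned to -0.32, with 2 members higher and 37 lower, beside 9.12% and 58.7% of all genes, and a median of all genes of -0.42. In males alone the median was 0.095 with 36 members higher and 13 lower (32.2% and 33.6% of all genes), and in females alone 0.36 with 67 higher and 2 lower (27.4% and 27%). When only the 1243 genes of 25 TPM or more were rescaled and fitted, the median of 47 members was 0.49, beside -0.10 for all genes. That fit has another scaling, so 0.49 and 0.24 rest on different scales. For 8 members, beside 3.41% of all genes, each ABE-treated library was above each wild-type library, namely *Rpl22*, *Rpl26*, *Rpl29*, *Rpl36*, *Rpl39l*, *Rps15*, *Rps27l* and *Rps19bp1*, which were chosen for this after their values were seen. The large subunit, with 36 of 45 canonical genes higher and a median of 0.26, stood above the small subunit, with 15 of 31 higher and a median of 0.098. The difference between the subunits was not tested.

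Besides *Rpl3l*, the members with the largest rises in ABE-treated against wild-type mice included *Rpl36* at 0.74 (adjusted p = 2.0e-09, SE 0.078), *Rpl26* at 0.73 (adjusted p = 7.0e-08, SE 0.095) and *Rps26* at 0.59 (adjusted p = 3.6e-06, SE 0.098). *Rps6* had a log2 fold change of 0.047 (adjusted p = 0.51, SE 0.063), *Rps19* of -0.0019 (adjusted p = 0.98, SE 0.059), *Rps3a1* of -0.0050 (adjusted p = 0.94, SE 0.052) and *Rplp2* of -0.033 (adjusted p = 0.63, SE 0.058), all short of the threshold. *Rps9*, *Rpl3*, *Rps10*, *Rpl13a* and the 2 tested retrocopies were the 6 that were lower. *Rps9* fell by 0.21 on the log2 scale (SE 0.050, adjusted p = 3.3e-04), and its value was 0.0072 when only genes with a mean of 25 TPM or more were rescaled and fitted.

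Next, ABE-treated were compared with saline-treated *LMNA* G/G mice to see how the treatment bears on these genes. Levels were lower in ABE-treated mice for 73 of 85 members and higher for 1, *Rpl3l*, where 23.7% and 24.8% of all genes were called. The median log2 fold change was -0.24, a 0.849-fold level, beside -0.0023 for all genes. Large and small subunit genes had medians of -0.23 (42 of 45 lower) and -0.24 (29 of 31 lower). For 0 members did every ABE-treated library lie below every saline-treated one, a count that was not taken over all genes.

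The falls left the groups overlapping. After *Rpl3*, the largest among members with at least 5 scaled TPM were those of *Rps29* at -0.38 (adjusted p = 0.0024, SE 0.095), *Rpl21* at -0.37 (adjusted p = 9.1e-04, SE 0.080), *Rpl41* at -0.37 (adjusted p = 8.8e-05, SE 0.055) and *Rpl32* at -0.36 (adjusted p = 0.0021, SE 0.087). *Rps29*, a zinc-finger protein of the small subunit, lay from 53.97 through a median of 71.3 up to 92.4 scaled TPM across wild-type libraries, from 94.3 through a median of 133 up to 165 across those of the saline group and from 71.9 through a median of 96.7 up to 131 across those of the ABE group. *Rpl41*, the smallest ribosomal protein, lay from 42.4 through a median of 48.3 up to 54.8 scaled TPM across wild-type libraries, from 59.5 through a median of 70.4 up to 86.6 across those of the saline group and from 43.9 through a median of 56.98 up to 60.4 across those of the ABE group. In each of these the ABE-treated libraries overlapped the saline-treated ones.

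*Rpl32* lay from 30.1 through a median of 37.2 up to 50.1 scaled TPM across wild-type libraries, from 54.01 through a median of 68.3 up to 81.3 across those of the saline group and from 38.3 through a median of 53.3 up to 68.1 across those of the ABE group, and *Rpl21* had medians of 4.24, 8.33 and 6.41. *Rpl5*, *Rpl11*, *Rps6* and *Rps19* fell by 0.19, 0.24, 0.25 and 0.28 on the log2 scale (adjusted p = 0.0019, 0.0023, 0.0022 and 8.4e-04). *Rplp0*, *Rplp1*, *Rplp2* and *Rpsa* fell by 0.16, 0.22, 0.24 and 0.22 (adjusted p = 0.010, 0.013, 0.0017 and 0.0054). *Rpl36* and *Rpl26*, which were among the furthest above wild-type, did not pass the threshold, with values of -0.15 (adjusted p = 0.10, SE 0.078) and -0.22 (adjusted p = 0.060, SE 0.095). Neither did the paralogs *Rps27l*, *Rps27rt*, *Rpl22l1* and *Rpl39l*. With single libraries left out, *Rps27rt* passed in 10 such fits, *Rpl26* in 3, and *Rpl36* and *Rpl22l1* in 1 each.

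Side by side, 83 members had a saline-treated mean above the wild-type mean, and for 69 of these the ABE-treated mean lay between them, for 11 at or below wild-type and for 3 above saline-treated. Both comparisons share the saline-treated libraries, so genes picked as high in them tend to come out lower in the other comparison. The counts of this paragraph were not taken over all genes. Of the 68 members called higher in saline-treated mice and lower in ABE-treated than saline-treated mice, 47 were also called higher in ABE-treated than wild-type mice, and 21 were not called in that comparison.

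Markers of other cell types moved in the same comparison. In ABE-treated against saline-treated mice 28 of 30 skeletal muscle genes were higher, and their summed level ran from 491 to 11618 in saline-treated and from 1663 to 19823 in ABE-treated mice, against 305 to 4602 in wild-type. Lower were 12 of 13 erythroid genes (sums of 136 to 440.3 in saline-treated and 37.5 to 329 in ABE-treated mice), 13 of 16 neutrophil genes (1139 to 3861 and 387 to 4272) and 12 of 12 proliferation genes (56.8 to 167 and 18.4 to 127). No gene of these lists was at 0 in all libraries.

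When the skeletal muscle genes entered as a covariate, 3 members were lower in ABE-treated than saline-treated mice, with a median of -0.16, and with the B cell, erythroid and neutrophil lists as covariates 13 were, with a median of -0.16. The calls of all genes dropped as well in these fits, to 231 higher and 100 lower with the muscle list and 553 and 598 with the blood lists. Against wild-type, the rise in saline-treated mice was called for 81 members with the muscle list (21.8% of all genes) and for 70 with the blood lists (12.1%), with medians of 0.51 and 0.40. In that comparison 21 of 30 skeletal muscle genes were higher, with a median log2 fold change of 1.16. There 13 of 15 B cell genes were lower (sums of 49.4 to 103 scaled TPM in wild-type and 25.7 to 68.2 in saline-treated mice), 4 of 16 neutrophil genes were higher, and the 12 proliferation genes passed in neither direction.

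Against wild-type in saline-treated mice, 10 of 10 osteocyte, 9 of 9 osteoclast, 3 of 10 osteoblast and 4 of 9 endothelial genes were higher, and 5 of 6 cartilage genes (median -1.84) and 1 of 13 erythroid genes were lower. Of 12 macrophage and monocyte genes 1 was higher and 2 were lower, and of 7 adipocyte genes 1 was higher and 1 lower. In ABE-treated against saline-treated mice 1 of 15 B cell, 1 of 10 osteocyte, 6 of 9 osteoclast, 1 of 10 osteoblast, 9 of 12 macrophage and monocyte and 6 of 7 adipocyte genes were lower, and 6 of 9 endothelial, 3 of 6 cartilage, 1 of 15 B cell, 1 of 10 osteoblast and 1 of 7 adipocyte genes were higher. The part of any of these cells in the changes of the ribosomal protein genes was not tested. The lists used as covariates differ between the groups themselves, so those fits cannot separate the cells sampled from genotype or treatment.

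Males and females were also fitted apart. In saline-treated against wild-type mice the median of the members was 0.41 in males and 0.49 in females, and the interaction of sex and group called 0 of 85 members (limma, 0.478% of all genes), while 3 had an unadjusted p under 0.05. Between the treatments it was -0.33 in males and -0.13 in females. The interaction again called 0 members (limma, 0.0248% of all genes), and 30 had an unadjusted p under 0.05. The difference, male minus female, was above 0 for 1 of 85. The counts of signs and of unadjusted p were not taken over all genes. The members vary together, so they are not 85 separate results. Its p was lowest for *Rpl37a*, at -0.30 (adjusted p = 0.090), a gene named here after its value was seen. With each sex fitted on its own, 78 members were lower in ABE-treated than saline-treated males (10.1% of all genes) and 6 in females (13.4%). In the fit over both sexes that holds the interaction the counts were 76 and 16, although the difference between the sexes did not pass the test for any member. Shares of all genes were not taken in that fit.

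Canonical members also varied together among mice of the same group and sex. After group and sex means were removed, the median correlation over 2850 pairs of the 76 genes was 0.76 (36 libraries, description only, since all values share the scaling of a library). Against the mean of the other canonical genes, *Rpl6* at 0.97, *Rps7* at 0.96 and *Rps26* at 0.96 followed most closely. *Rps10* at 0.088, *Rps2* at 0.17, *Rpl13a* at 0.31 and *Rpl22* at 0.32 followed least. Of the paralogs, *Rpl39l* stood at 0.16 and *Rps27l* at 0.54, and *Rpl3l* went the other way at -0.48. These genes were picked by this value.

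Shorter canonical genes tended to larger rises. Over the 76 canonical genes, the log2 fold change in saline-treated against wild-type mice had a Spearman's rho of -0.44 with coding length, 0.15 with GC content and 0.10 with the mean level. The 25 genes with the shortest coding sequences (138 to 405 bases) had a median of 0.54 and the 25 with the longest (588 to 1257 bases) of 0.33. Between the treatments these medians were -0.24 and -0.21. When a trend with GC content and length over all genes was removed, 75 members were higher in saline-treated than wild-type mice (median 0.38), beside 25.5% of all genes. In that fit 67 were lower in ABE-treated than saline-treated mice (median -0.20), beside 23.7% of all genes.

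**Figure D4:**
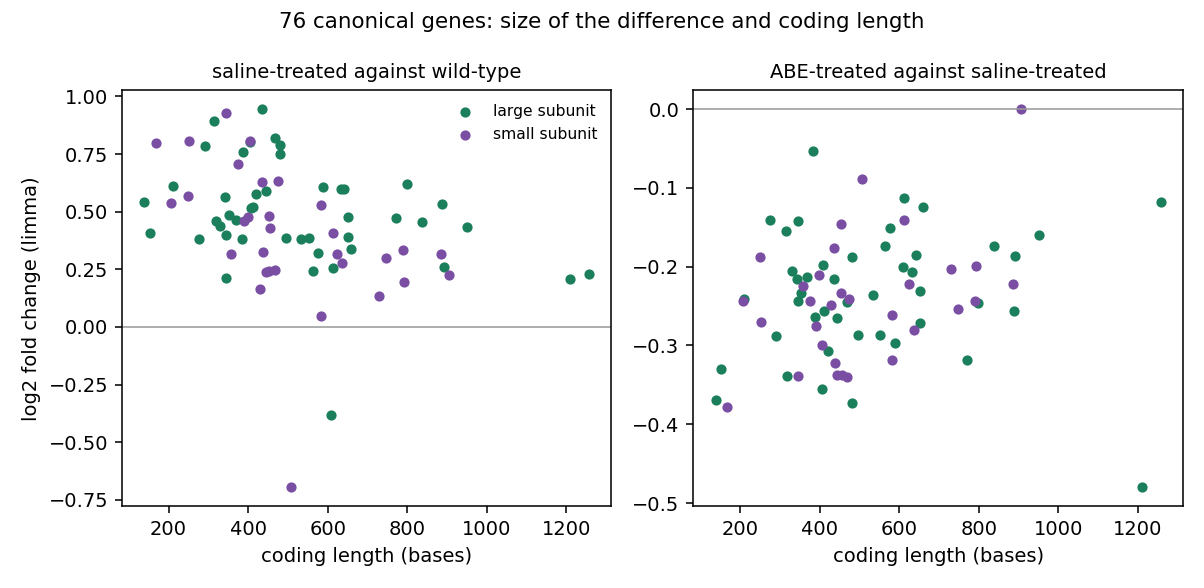
Log2 fold change (y axis) of the 76 canonical genes against coding length in bases (x axis), for saline-treated against wild-type mice (left) and ABE-treated against saline-treated mice (right), with colors for the subunits and separate y scales. On the left the 25 shortest genes have a median of 0.54 and the 25 longest of 0.33, and on the right all but *Rps2* lie below 0.

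Mitochondria have ribosomes of their own, whose proteins are encoded by 80 nuclear genes in the table, 76 of which were tested. They were higher for 62 and lower for 1 in saline-treated against wild-type mice, with a median of 0.23. In ABE-treated against saline-treated mice, where cytosolic members fell, 52 mitochondrial genes were higher and 2 lower, with a median of 0.19. Of all genes, 25.7% were higher and 27% lower in the first of these comparisons, and 24.8% and 23.7% in the second. The same shares apply to the lists below. Among the most abundant of them, *Mrps21* rose between the treatments by 0.44 (adjusted p = 0.0045), *Mrpl34* by 0.34 (adjusted p = 0.0048) and *Mrpl12* by 0.55 (adjusted p = 0.0014).

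Translation factors whose mRNAs also carry a TOP motif moved in part with the ribosomal proteins. Of 20, 13 were higher in saline-treated than wild-type mice (median 0.25), and between the treatments 10 were lower and 1 higher (median -0.089). *Eef1a1*, which brings aminoacyl-tRNA to the ribosome, rose by 0.25 (adjusted p = 0.014) in saline-treated mice and had a log2 fold change of -0.42 (adjusted p = 6.7e-04) between the treatments. *Eef2*, which moves the ribosome along mRNA, rose by 0.31 (adjusted p = 3.6e-06) and *Tpt1* by 0.56 (adjusted p = 1.2e-07) against wild-type, with values of 0.010 (adjusted p = 0.88) and 0.13 (adjusted p = 0.15) between the treatments.

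In the list of cytosolic initiation and elongation factors, none of which is in the former list, 17 of 24 were higher and 1 lower in saline-treated mice, and 8 were higher and 5 lower between the treatments. *Eef1a2*, the form of the factor used by muscle and neurons, rose by 1.09 (adjusted p = 0.034) in saline-treated mice and by 1.36 (adjusted p = 0.011) between the treatments, in the direction of *Rpl3l*. *Eif1*, which guards start codon choice, rose by 0.33 (adjusted p = 0.014) and 0.29 (adjusted p = 0.032), and *Eif5a* rose by 0.21 (adjusted p = 0.0013) and then had a value of -0.20 (adjusted p = 0.0036).

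Genes that build ribosomes changed in both directions. Of 40 genes of ribosome biogenesis, 17 were higher and 7 lower in saline-treated mice (median 0.069), and 6 were higher and 15 lower between the treatments (median -0.031). The nucleolar proteins *Npm1* and *Ncl* and the snoRNP protein *Nhp2* rose by 0.21 (adjusted p = 0.028), 0.26 (adjusted p = 3.1e-06) and 0.27 (adjusted p = 0.0024) against wild-type, and their values between the treatments were -0.32 (adjusted p = 0.0022), -0.27 (adjusted p = 9.0e-05) and -0.28 (adjusted p = 0.0034). Of 14 genes of RNA polymerase I, which transcribes ribosomal RNA, 5 were higher and 7 lower (median -0.063), with *Ubtf* at -0.14 (adjusted p = 0.017), *Znrd1* at 0.20 (adjusted p = 0.0027) and *Polr1d* at 0.21 (adjusted p = 4.1e-05).

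Non-coding host genes of small nucleolar RNAs, which carry the TOP motif as well, followed another course. Of 6, 4 were lower in saline-treated mice (median -0.15), and 4 were lower between the treatments. *Snhg8* had a value of -0.19 (adjusted p = 0.015), *Gas5* of -0.051 (adjusted p = 0.31) and *Snhg6* of 0.031 (adjusted p = 0.67) against wild-type. In the mTORC1 list, 3 of 19 genes were higher and 6 lower in saline-treated mice, and 10 were higher and 3 lower between the treatments. *Ddit4*, an inhibitor of mTORC1, rose by 1.94 (adjusted p = 3.0e-10), from a mean of 6.18 ± 2.19 (SD, n = 12) to 25.1 ± 8.11 scaled TPM (SD, n = 12), and the values of *Eif4ebp2* and *Larp1* were -0.087 (adjusted p = 0.39) and 0.047 (adjusted p = 0.42).

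**Figure D5:**
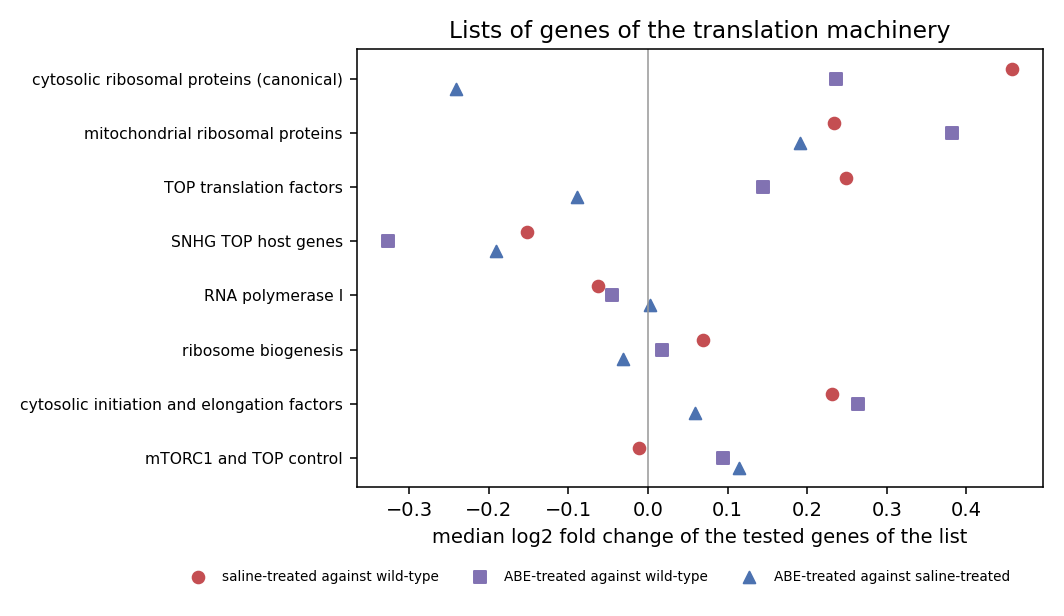
Median log2 fold change (x axis) of the tested genes of 8 lists of the translation machinery (y axis) in 3 comparisons (symbols). The canonical cytosolic ribosomal proteins have medians of 0.46, 0.24 and -0.24, and those of the mitochondrial ribosome 0.23, 0.38 and 0.19. On TPM as deposited the median of the 85 cytosolic members against wild-type in ABE-treated mice turned to -0.32, beside -0.42 for all genes.

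The genome also holds 314 pseudogenes named after ribosomal proteins in the table, of which 97 were tested. Of these, 58 were higher and 2 lower in saline-treated against wild-type mice (median 0.25), beside 25.7% and 27% of all genes. In ABE-treated against saline-treated mice 2 were higher and 69 lower (median -0.25), beside 24.8% and 23.7% of all genes. Together they held between 0.0117% and 0.0338% of reads on genes, against 0.864% to 2.07% for the members, and how many of these reads came from the canonical genes was not tested.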

How the data were processed

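Total RNA of the tibia was sequenced in 36 mice, 12 in each group, and the labels name each library as a separate mouse. The authors aligned reads with STAR (written 2.73a in the submitters' processing notes) to GRCm38 and counted them per gene, and deposited 1 table of TPM with gene length, GC fraction, symbol and type; how the TPM were computed is not given in the sources used here. The deposited TPM, multiplied by gene length less 218 bp and divided by a constant of each library, gave whole reads within 0.01 reads, which were used for depth and for limma-voom as an alternative. No pair of libraries was identical.

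Here libraries were rescaled by median ratios, and the 16123 genes whose mean reached 0.5 TPM were fitted together over all 36 libraries with limma 3.58.1 (R 4.3.3) on log2(scaled TPM + 0.5) with group and sex. Adjusted p are Benjamini-Hochberg over all genes, and genes under 0.05 are called. P-values of relations come from 100000 permutations (scipy 1.17.1). The study used a count model; limma was used here because the values are TPM. The fit was tested on simulated data. The offset was the one that made most values whole. The deposited GC fraction entered only a trend correction. Sequences, exons and starts came from RefSeq and the given annotation of GRCm38.

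The members and lists were chosen with earlier results of these data known. Named were, in each comparison, the 5 called members with the largest rise and the 5 with the largest fall at 5 scaled TPM or more, the paralogs and their partners, stalk proteins, *Rpsa*, *Rpl5*, *Rpl11*, *Rps6*, *Rps19*, *Fau* and *Rack1*, the 5 highest, those under the filter, and the 3 highest of each other list. Alternatives were other scalings, pseudocounts (0.1, 1), filters (none, 25 TPM), no sex term, each sex alone, only the compared groups, array weights, marker lists as covariates and each library left out. Removal of the trend with GC content and length (50 bins) was chosen after seeing the data. One further gene of the named list is not reported here.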

Additional observations from a re-analysis of the deposited data

How the results depend on the processing

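Directions of the 3 medians held under every alternative run except TPM as deposited, where ABE-treated against wild-type turned to -0.32; there 17 members were higher in saline-treated mice (median 0.28), 2 higher and 37 lower in ABE-treated against wild-type mice, and the median between the treatments was -0.63, with medians of all genes of -0.13, -0.42 and -0.27. With no filter 4 members were lower in saline-treated mice (16.1% of all genes). At 25 TPM, which left 47 members, 47 were higher and 0 lower in saline-treated mice (29.6% and 29.6% of all genes, median 0.62). In ABE-treated against wild-type mice 0 were lower (32.1%, median 0.49). Between the treatments 0 were higher and 13 lower (13% and 15.6%). In males alone 36 were higher and 13 lower in ABE-treated against wild-type mice (32.2% and 33.6% of all genes, median 0.095). Between the treatments 0 were higher in males (11%). In females alone 2 were lower in ABE-treated against wild-type mice (27%, median 0.36) and 6 lower between the treatments (13.4%). With the muscle list and with the blood lists 2 members were lower against wild-type in ABE-treated mice (16.2% and 19% of all genes). Between the treatments 0 were higher (1.43% and 3.43%) and 3 and 13 were lower (0.62% and 3.71%). With the GC and length trend removed 2 were higher between the treatments (26%). With each library left out, saline-treated against wild-type gave 75 to 79 higher, 2 lower and medians of 0.43 to 0.48; ABE-treated against wild-type 54 to 60, 5 to 6 and 0.22 to 0.26; and between the treatments 1, 66 to 76 and -0.26 to -0.22. Of 96 single-gene values, 13 changed call or sign in such a fit. Signs changed for *Rps19* (-0.025 to 0.025), *Rps3a1* (-0.025 to 0.024) and *Rplp2* (-0.054 to 0.0037), all near 0 in ABE-treated against wild-type mice. Between the treatments a call was gained for *Rps27rt* with any 1 of 10 libraries left out. It was gained for *Rpl26* with any 1 of 3, and for *Rpl36* and *Rpl22l1* with 1 each. In ABE-treated against wild-type mice *Rpl11* lost its call with any 1 of 7, while *Rpl36a* gained one with 4 and *Rpl5* with 2. Those of *Rpl3l*, *Rpl3* and *Rpl22l1* in saline-treated mice are given above. Single genes turned sign as follows. On TPM as deposited these were *Rps9* -0.13 and *Rpl7l1* -0.093 in saline-treated against wild-type mice, and *Rps29* -0.16, *Rpl21* -0.10, *Rpl41* -0.41, *Rpl32* -0.13, *Rpl22l1* -0.44, *Rpl10* -0.16, *Rpl22* -0.20, *Rpl39* -0.48, *Rpl36a* -0.43, *Rps27* -0.032, *Rps4x* -0.49, *Rps19bp1* -0.20, *Rpl7l1* -0.46, *Rpl5* -0.49, *Rpl11* -0.42, *Rplp0* -0.31, *Rplp1* -0.24, *Rpsa* -0.49, *Rps6* -0.53 and *Rps15* -0.13 in ABE-treated against wild-type mice, and *Rps19bp1* -0.26 between the treatments. With quantile normalization these were *Rpl39* -0.0016, *Rpl7l1* -0.025 and *Rps3a1* 0.23 in ABE-treated against wild-type mice. At 25 TPM these were *Rps9* 0.0072, *Rplp2* 0.19 and *Rps3a1* 0.22 in ABE-treated against wild-type mice. In males alone these were *Rps9* -0.019 in saline-treated against wild-type mice, and *Rpl22l1* -0.19, *Rpl39* -0.13, *Rps4x* -0.075, *Rpl7l1* -0.085, *Rpl5* -0.086, *Rpl11* -0.0045, *Rpsa* -0.068 and *Rps6* -0.11 in ABE-treated against wild-type mice, and *Rps19bp1* -0.024 between the treatments. In females alone these were *Rplp2* 0.11, *Rps19* 0.16 and *Rps3a1* 0.18 in ABE-treated against wild-type mice, and *Rps27l* 0.043, *Rpl36* 0.014, *Rpl22l1* 0.044, *Rpl22* 0.051 and *Rpl7l1* 0.014 between the treatments. With the muscle list these were *Rpl3* 0.085, *Rplp2* 0.12, *Rps19* 0.20 and *Rps3a1* 0.16 in ABE-treated against wild-type mice, and *Rps19bp1* -0.0012 and *Rpl7l1* 0.0012 between the treatments. With the blood lists these were *Rpl3* 0.064, *Rplp2* 0.055, *Rps19* 0.13 and *Rps3a1* 0.048 in ABE-treated against wild-type mice, and *Rps19bp1* -0.0013 and *Rpl7l1* 0.018 between the treatments. Without the ABE-treated library of lowest median these were *Rps19* 0.025 and *Rps3a1* 0.00048 in ABE-treated against wild-type mice. With the GC and length trend removed these were *Rps9* -0.025 in saline-treated against wild-type mice, and *Rpl7l1* -0.029, *Rps6* -0.010 and *Rps19* 0.056 in ABE-treated against wild-type mice. Causes were not tested. No paired analysis was possible because the labels carry no replicate numbers that the groups share. A batch between the 2 series of mouse numbers and the injection cannot be told apart from the genotype.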
